A study of Danio rerio with 13 samples.

Results

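The BCL2 family genes described here are bcl2a, bcl2l1, mcl1a, mcl1b, bcl2l10, bcl2l11, baxa, bbc3 and pmaip1, chosen by symbol from a count table of zebrafish leukemias. They are 9 of the 32105 Ensembl gene identifiers in the table, and each was found under 1 identifier. baxa stands in the name table as BAX and was matched through a RefSeq synonym, and bcl2l1 stands there as BCL2L1. A further identifier that the name table calls BCL2, ENSDARG00000089109, is kept apart from bcl2a, which was matched by its own symbol. Because bcl2 is a RefSeq synonym of bcl2a, whether this is another identifier of bcl2a is not settled here. ENSDARG00000089109 had between 0 and 16 reads in a library and was too low to test.

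The leukemias are acute lymphoblastic leukemias of zebrafish of a double transgenic line, rag2:hMYC;lck:eGFP, and all 13 libraries form 1 group without a control. Human MYC is driven by the promoter of rag2, a gene of developing B and T cells, and eGFP by the promoter of lck, a lymphocyte kinase gene. GFP-positive cells were sorted from the whole body, so leukemia cells without an active lck promoter would be missed. The sort does not separate leukemia cells from any other GFP-positive cells. The ages of the fish are not given in the sources used here. The design text counts 13 leukemias but the labels tie no library to a fish, and the p-values measure the spread between libraries, which may in part be technical.

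Proteins of the BCL2 family decide whether the outer mitochondrial membrane stays intact. Survival proteins such as BCL2, BCL-XL and MCL1 hold the effectors BAX and BAK in check, BH3-only proteins such as BIM, PUMA and NOXA relieve that hold or activate the effectors, and open effector pores release cytochrome c, which starts the caspases. High MYC activity drives both proliferation and apoptosis, and lymphoid tumors with high MYC commonly carry changes that blunt the death arm. In mammals MCL1 is needed by lymphocytes, BCL-XL by immature ones and BCL2 by mature ones.

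Poly(A) RNA was counted per gene, and totals ranged from 8166453 reads in hMYC-2 to 12297780 in hMYC-8. The column hMYC-1, with 51808498 reads, was not independent of hMYC-10 to hMYC-14 and was left out, which leaves 12 libraries. It had fewer reads than each of those 5 libraries in at most 1 of 32105 genes, against 481 to 1096 genes for each of the other 7. It was not their plain sum, because its reads of the 9 genes were between 0.901 (mcl1a) and 1.54 (bbc3) times that sum, and how it was made is not given in the sources used here. Levels are given as log2 CPM, with CPM the counts scaled to the library total and to TMM factors (trimmed mean of M-values), and a prior count of 2. hMYC-2 stood apart with a normalization factor of 0.744, against 0.975 to 1.08 in the other 11 libraries, which raises its log2 CPM over that from library totals.

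The leukemias ranged from T-like to B-like, and each was placed by an index, the mean log2 CPM of 11 B cell genes minus that of 17 T cell genes. The B cell mean was lowest in hMYC-11, at 0.09, and highest in hMYC-3, at 7.78. For the T cell mean the lowest value was 3.45, in hMYC-5, and the highest 7.68, in hMYC-2. hMYC-12 was high in both, with a B cell mean of 6.23 and a T cell mean of 7.61, and hMYC-4 had 7.32 and 6.29. The index alone does not tell such libraries from ones in which both means are moderate. From the T end to the B end the index was -7.09 in hMYC-11, -6.25 in hMYC-9, -5.95 in hMYC-10, -4.95 in hMYC-2, -4.76 in hMYC-14 and -4.42 in hMYC-8. It went on with -3.79 in hMYC-6, -3.15 in hMYC-13, -1.38 in hMYC-12, 1.03 in hMYC-4, 2.66 in hMYC-3 and 3.44 in hMYC-5. No gap exceeded 0.229 of the span of 10.5 units, so the leukemias were kept on this scale and not divided into types. A slope below is the change in log2 level per unit of index, and a positive slope means a higher level at the B end. Here a gene is called where its slope passes edgeR's quasi-likelihood test at a Benjamini-Hochberg adjusted p of 0.05 over all 15523 genes tested. In sorted bulk samples, fewer cells of a type and less RNA per cell cannot be told apart.

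All 9 genes passed the filter on low counts. pmaip1 and bbc3 were higher toward the B end, mcl1b was lower there, and the other 6 did not pass the test. That is 3 of 9 called, 2 higher and 1 lower. Of all genes tested, 15.8% were called, with 10.1% higher and 5.7% lower. The median slope was 0.01 over the 9 genes and -0.01 over all genes. All 3 calls were lost when the letter in the sample descriptions, c or d, was added to the fit. That fit called 1984 of all 15523 genes tested.

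**Figure D1:**
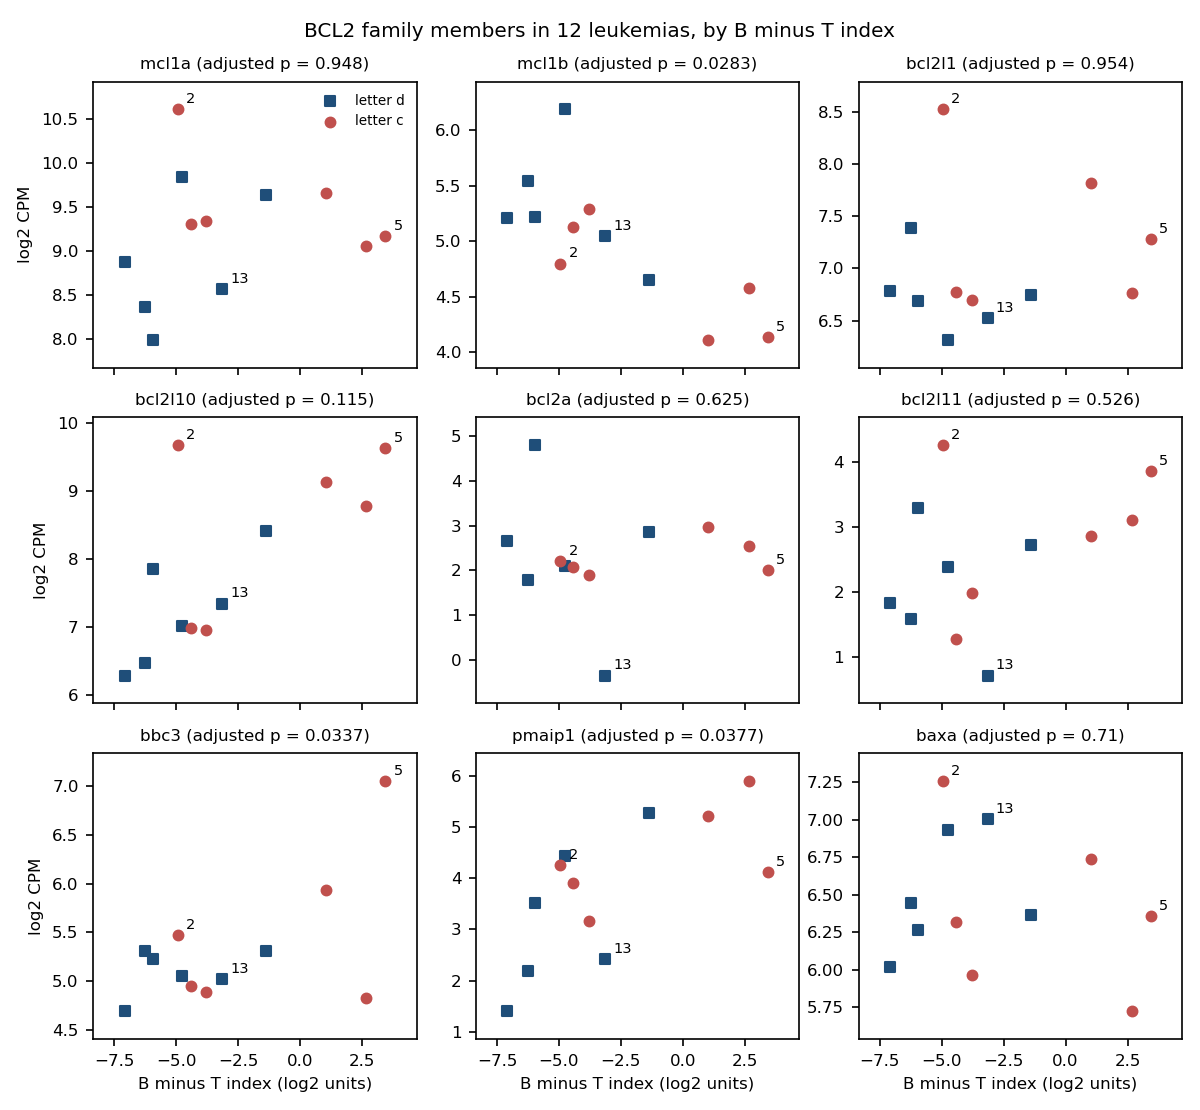
Level of each of the 9 genes (y axes, log2 CPM) against the B minus T index (x axes, log2 units) in 12 leukemias, with the adjusted p of the slope from edgeR above each panel. Squares are letter d libraries, circles letter c libraries, and the numbers mark hMYC-2, hMYC-5 and hMYC-13; pmaip1 and bbc3 are called higher and mcl1b lower toward the right.

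Among the survival genes, mcl1b (ENSDARG00000008363) ran against the index. mcl1b is one of a pair of zebrafish genes related to MCL1, a short-lived inhibitor of BAX and BAK. Its log2 CPM had a lowest value of 4.11 in hMYC-4, a median of 5.09 and a highest value of 6.19 in hMYC-14, from 168 to 767 reads. The 3 leukemias with an index above 0 had 4.11, 4.58 and 4.14, the lowest of the 12. That order depends on the TMM factors. Scaled by library totals, hMYC-2 at the T end had 4.37, below hMYC-3 (168 of 8166453 reads against 277 of 10926185). The slope was -0.13 ± 0.04 (SE, n = 12), which over the span of the index is a fitted change to 0.381 of the level, with an adjusted p of 0.0283 by edgeR. The call was kept in 8 of 12 fits that each left out 1 library, and lost without hMYC-3 (adjusted p 0.052), hMYC-4 (0.0806), hMYC-5 (0.127) or hMYC-9 (0.0527). With library totals in place of TMM factors the adjusted p was 0.0652, and over 24 alternatives it ranged from 0.00355 to 0.713.

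Its duplicate mcl1a (ENSDARG00000009779) showed no slope past the test. mcl1a had a lowest log2 CPM of 7.99 in hMYC-10, a median of 9.24 and a highest of 10.62 in hMYC-2, from 2918 to 9674 reads. The high and low libraries both lay at the T end, and the 3 leukemias with an index above 0 stood near the median with 9.66, 9.06 and 9.16. Its slope was 0.01 ± 0.06 (SE, n = 12; edgeR adjusted p 0.948). Reads of 2 duplicates can be split or lost in counting where their sequences are alike, and how such reads were handled is not given in the sources used here.

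bcl2l10 (ENSDARG00000026766) is the family member known in zebrafish embryos as nrz, an inhibitor of apoptosis that also acts on calcium release. It had a lowest log2 CPM of 6.29 in hMYC-11, a median of 7.61 and a highest of 9.68 in hMYC-2, a 10.5-fold range from 765 to 9583 reads. The 3 leukemias with an index above 0 had 9.14, 8.78 and 9.64, and hMYC-2, at the T end, was as high. The slope of 0.19 ± 0.08 (SE, n = 12) did not pass the test (edgeR adjusted p 0.115, unadjusted 0.0265). Without hMYC-2 the slope was 0.27 and passed with an edgeR adjusted p of 0.000599. It also passed with library totals in place of TMM factors, with a slope of 0.21 and an adjusted p of 0.0359. With the letter in the fit the slope was smaller, at 0.13 (edgeR adjusted p 0.339). It was 0.09 within letter c alone (0.641) and 0.26 within letter d alone (0.436). Over 24 alternatives, 2 of which called bcl2l10, the adjusted p ranged from 0.000599 to 0.641.

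bcl2l1 (ENSDARG00000008434), the gene of BCL-XL, had a lowest log2 CPM of 6.32 in hMYC-14, a median of 6.77 and a highest of 8.53 in hMYC-2, from 839 to 2406 reads. hMYC-2 and hMYC-4, at 8.53 and 7.82, stood above the others, and they lie far apart on the index. The slope was 0.01 ± 0.06 (SE, n = 12; edgeR adjusted p 0.954).

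bcl2a (ENSDARG00000094704), related to BCL2, was carried by few reads. It had a lowest log2 CPM of -0.36 in hMYC-13, with 7 reads, a median of 2.15 and a highest of 4.81 in hMYC-10, with 320 reads. The range was 35.8-fold, the widest of the 9 genes, and it came from those 2 libraries, because the other 10 lay between 1.78 and 2.97. Its slope of -0.08 ± 0.09 (SE, n = 12) did not pass the test (edgeR adjusted p 0.625).

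Read numbers grow with transcript length, and lengths were not used here, so the reads of the survival genes are compared between libraries and not as levels between genes. mcl1a held the most reads of the 5 survival genes in 11 of 12 leukemias. Its share of their reads had a lowest value of 37.1%, a median of 56.5% and a highest of 76.3%. bcl2l10 held from 10.7% to 51.4% with a median of 25.6%, and it was ahead of mcl1a in 1 leukemia, hMYC-5, at the B end. There bcl2l10 took 51.4% (95% Wilson interval 50.7% to 52.2%) and mcl1a 37.1% (36.4% to 37.8%) of 18626 reads. In hMYC-14 mcl1a took 76.3% (75.5% to 77.0%) and bcl2l10 10.7% (10.2% to 11.3%) of 12685 reads. These intervals cover counting error only, and reads without molecular identifiers are not independent molecules.

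The ratio of bcl2l10 to mcl1a reads needs no normalization between libraries. Along the index it was 0.167 in hMYC-11, 0.270 in hMYC-9, 0.917 in hMYC-10, 0.523 in hMYC-2, 0.141 in hMYC-14 and 0.201 in hMYC-8. It went on with 0.192 in hMYC-6, 0.431 in hMYC-13, 0.428 in hMYC-12, 0.694 in hMYC-4, 0.826 in hMYC-3 and 1.39 in hMYC-5. The 3 leukemias with an index above 0 thus had 3 of the 4 highest ratios, and the other of these 4 was hMYC-10, a T-like leukemia in which mcl1a was lowest. The remaining survival reads went to bcl2l1 (6.61% to 26.3%), mcl1b (0.991% to 7.30%) and bcl2a (0.0893% to 4.25%). bcl2l1 reached its 26.3% and mcl1b its 7.30% in the same library, hMYC-9.

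**Figure D2:**
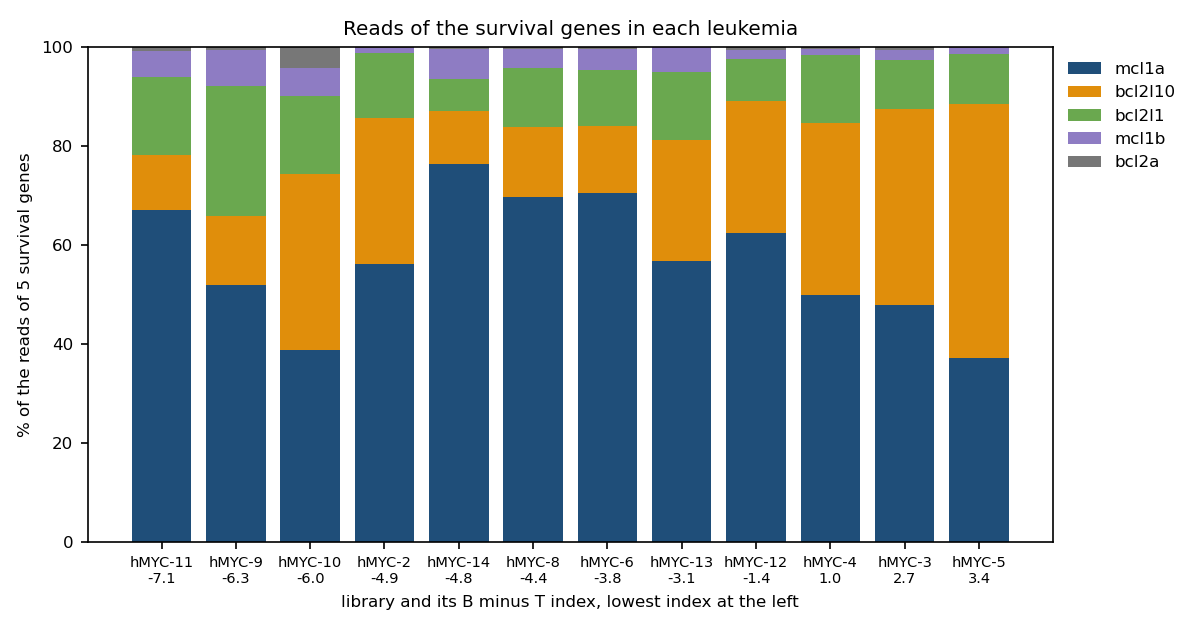
Percentage of the reads of 5 survival genes that fell to each of them (y axis, %) in each of 12 leukemias, ordered by B minus T index from left to right, with the index under each name. mcl1a is the largest part in 11 bars, and bcl2l10 is the largest part, with 51.4%, in hMYC-5 at the far right.

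Among the 3 BH3-only genes of the 9, pmaip1 (ENSDARG00000089307) had the largest SD and was called higher toward the B end. pmaip1 is the gene of NOXA, which in mammals binds MCL1 and promotes its loss. Its log2 CPM had a lowest value of 1.40 in hMYC-11, with 24 reads, a median of 4.01 and a highest value of 5.90 in hMYC-3, with 695 reads. This 22.7-fold range runs from the leukemia with the lowest index to the one with the second highest. hMYC-12, hMYC-4 and hMYC-3 had 5.28, 5.21 and 5.90, while hMYC-5, the most B-like, had 4.12, below hMYC-14 and hMYC-2 at the T end with 4.43 and 4.26. The order of hMYC-5 and hMYC-2 depends on the TMM factors. Scaled by library totals, hMYC-2 was below hMYC-5 (115 of 8166453 reads against 207 of 11784361). The slope was 0.27 ± 0.08 (SE, n = 12), a fitted 6.95-fold change over the span, with an edgeR adjusted p of 0.0377. The call was kept in 5 of 12 fits that each left out 1 library. It was lost without hMYC-3 (adjusted p 0.185), hMYC-9 (0.0739), hMYC-4 (0.0733), hMYC-11 (0.0688), hMYC-6 (0.0554), hMYC-10 (0.0528) or hMYC-8 (0.0518), and over 24 alternatives the adjusted p ranged from 0.00351 to 0.608.

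Myeloid genes were counted beside pmaip1. The mean log2 CPM of 6 myeloid genes was highest in hMYC-12 (4.62), hMYC-3 (4.54), hMYC-4 (4.44) and hMYC-14 (3.98), which are also the 4 libraries with the highest pmaip1, and lowest in hMYC-10 (1.90). All 6 were detected in every library. Their summed level ran from 337 CPM in hMYC-2 to 815 CPM in hMYC-13. pmaip1 was low in hMYC-13, at 2.43, and hMYC-11, lowest in pmaip1, had a sum of 676 CPM. Most of the sum in hMYC-13 was LCP1, with 8619 of 8924 reads, so the sum says little about myeloid cells. LCP1, a leukocyte actin-bundling gene that lymphocytes also express, had 2652 to 8619 reads, and SPI1, a transcription factor gene of myeloid and B cells, had 12 to 4569 with the most in hMYC-5. By contrast lyz, the lysozyme gene of granulocytes and macrophages, had 14 to 433 and csf1ra, a macrophage receptor gene, 5 to 49. Their part in the pmaip1 result was not tested.

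bbc3 (ENSDARG00000069282), the gene of PUMA, a BH3-only protein that in mammals binds all survival proteins, rested on 1 leukemia. Its log2 CPM had a lowest value of 4.69 in hMYC-11, with 251 reads, a median of 5.14 and a highest value of 7.05 in hMYC-5, with 1599 reads. The next highest was hMYC-4 with 5.93, and hMYC-3, between these 2 on the index, had 4.83, the second lowest. The slope over 12 libraries was 0.14 ± 0.04 (SE), a fitted 2.69-fold change over the span, with an edgeR adjusted p of 0.0337. Without hMYC-5 it was 0.04 with an adjusted p of 0.596. The call was also lost without hMYC-4 (adjusted p 0.068), hMYC-8 (0.0516) or hMYC-11 (0.0718), and over 24 alternatives the adjusted p ranged from 0.00416 to 0.911.

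bcl2l11 (ENSDARG00000079144), the gene of BIM, the BH3-only protein that removes self-reactive lymphocytes in mammals, had few reads, from 17 to 172. Its log2 CPM had a lowest value of 0.71 in hMYC-13, a median of 2.55 and a highest value of 4.26 in hMYC-2. hMYC-13 was thus lowest in both bcl2l11 and bcl2a, while its baxa was among the highest. The slope of 0.09 ± 0.08 (SE, n = 12) did not pass the test (edgeR adjusted p 0.526).

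The effector baxa (ENSDARG00000020623), whose product forms pores in the outer mitochondrial membrane, varied least. Its log2 CPM had a lowest value of 5.72 in hMYC-3, a median of 6.36 and a highest value of 7.26 in hMYC-2, from 614 to 1504 reads. The slope was -0.03 ± 0.04 (SE, n = 12; edgeR adjusted p 0.71). The SD of log2 CPM over the 12 leukemias was 0.46 for baxa, and 66.2% of the genes tested had a larger one. It was 1.35 for pmaip1, 1.21 for bcl2l10, 1.16 for bcl2a and 1.06 for bcl2l11, which 20.8%, 24.9%, 26.4% and 30.0% of genes exceeded. The median SD of all genes tested was 0.63.

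hMYC-2 had the highest log2 CPM for 5 of the genes, bcl2l1, mcl1a, bcl2l10, bcl2l11 and baxa. Scaled by library totals it was still highest in bcl2l1 (8.10, next hMYC-4 with 7.79) and mcl1a (10.19, next hMYC-14 with 9.89). On that scale hMYC-5 was higher in bcl2l10 and in bcl2l11, and hMYC-13 was highest in baxa.

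**Figure D3:**
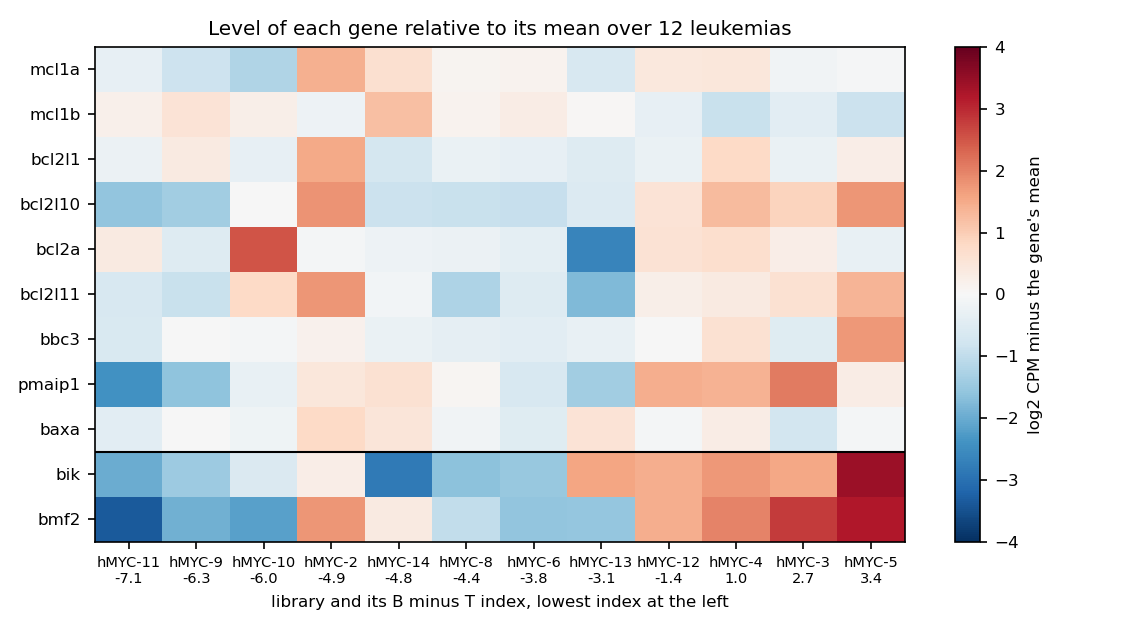
Level of each gene (rows) in each of 12 leukemias (columns, ordered by B minus T index from left to right) as log2 CPM minus that gene's mean, with red above and blue below the mean. The 9 genes stand above the black line and bik and bmf2, also of the BCL2 family, below it; hMYC-2 is the highest column in 5 of the 9 genes, and hMYC-5 is highest in bbc3, bik and bmf2.

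The rest of the family was taken from a list of 25 symbols, of which 9 were matched to 1 identifier outside the 9 genes above and 8 were tested. 2 of the 8 were called higher toward the B end and 0 lower, beside 10.1% higher and 5.7% lower over all genes tested. The median slope was 0.09. bik, the gene of a BH3-only killer protein, had a lowest log2 CPM of 0.60 in hMYC-14, a median of 3.28 and a highest of 6.87 in hMYC-5, from 14 to 1405 reads. The 5 leukemias with the highest index, hMYC-13, hMYC-12, hMYC-4, hMYC-3 and hMYC-5, all had 4.90 or more, and the other 7 lay at 3.70 or below. The slope of bik was 0.44 ± 0.08 (SE, n = 12; edgeR adjusted p 0.0028), and it passed again without hMYC-5, at 0.41 with an adjusted p of 0.0441.

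bmf2, related to the BH3-only gene BMF, had a lowest log2 CPM of -0.52 in hMYC-11, a median of 2.50 and a highest of 6.03 in hMYC-5, from 5 to 784 reads. hMYC-2 was high for its place on the index with 4.59, above hMYC-12 with 4.29. Scaled by library totals in place of TMM factors, it was below hMYC-12 (145 of 8166453 reads against 185 of 9332051). The slope was 0.43 ± 0.10 (SE, n = 12; edgeR adjusted p 0.0128), and without hMYC-5 it was 0.44 with an adjusted p of 0.0612. With the letter in the fit bik still passed (adjusted p 0.00886) and bmf2 did not (0.0574). With the T cell mean alone neither passed, and 0 of 9 other family genes were called, beside 619 of all 16446 genes tested. Within letter d alone neither passed, and 0 of 8 were called, beside 67 of 14905. In the main fit the remaining 6 did not pass, with slopes of 0.13 for bcl2l12, 0.09 for bada, 0.08 for baxb, 0.06 for badb, 0.04 for bcl2l13 and -0.01 for bida. The 2 identifiers named BOK had at most 2 and 7 reads, and bmf1 at most 11.

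**Figure D4:**
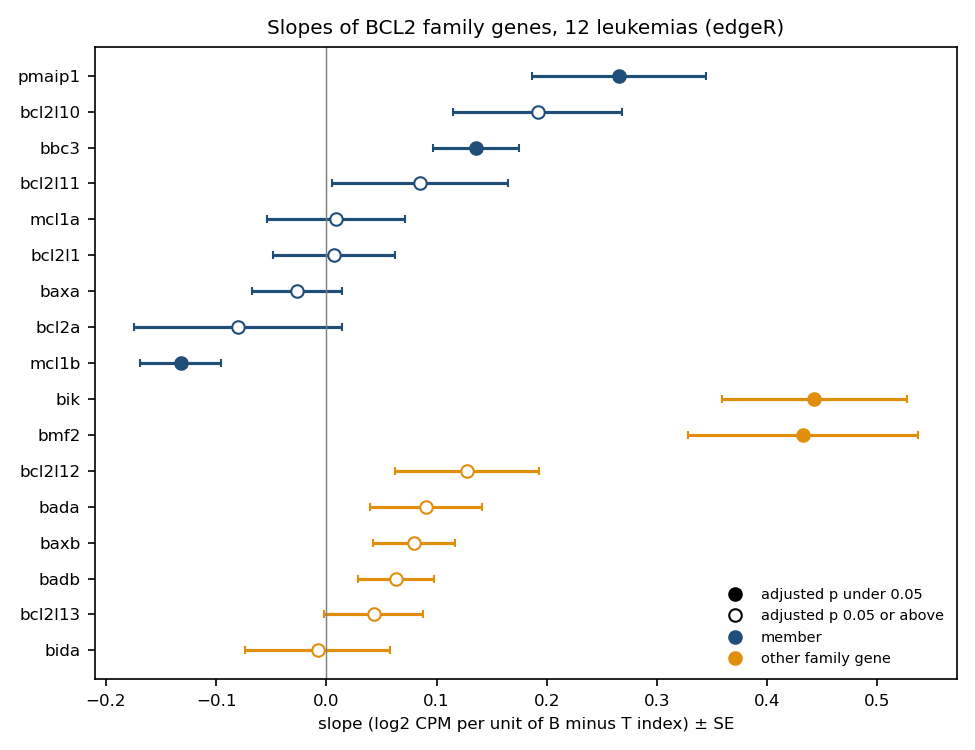
Slope of each BCL2 family gene along the B minus T index (x axis, log2 CPM per unit of index, with its SE as a bar) from edgeR over 12 leukemias. Blue points are the 9 genes and orange points 8 other family genes; filled points have an adjusted p under 0.05, which holds for pmaip1, bbc3, mcl1b, bik and bmf2.

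The apoptosome and caspase genes that could be tested showed no slope past the test. Of 23 listed genes of the apoptosome, the caspases and their inhibitors, 17 were matched and 14 tested. edgeR called 0 of them, where 15.8% of the whole table's tested genes were called. At an unadjusted p under 0.05 there were 0 of the 14, beside 28.4% of all genes. DESeq2's Wald test called 0, beside 3702 of all 15523 genes tested. Their slopes ranged from -0.09 for diablob, an antagonist of caspase inhibitors, to 0.04 for APAF1, the scaffold of the apoptosome, with a median of -0.01 and a lowest adjusted p of 0.274.

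mdm2, a ubiquitin ligase gene, and cdkn1a, a cell cycle inhibitor gene, were highest in the same leukemia as bbc3. mdm2 had a lowest log2 CPM of 6.14 in hMYC-13, with 829 reads, and a highest of 8.03 in hMYC-5, with 3138 reads. cdkn1a ranged from 1.34 in hMYC-10 to 5.41 in hMYC-5. Neither passed the test along the index, with slopes of 0.10 for mdm2 (edgeR adjusted p 0.0658) and 0.19 for cdkn1a (0.0802), while DESeq2's Wald test called cdkn1a (adjusted p 0.0389).

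Whether levels moved together across leukemias was tested for 5 pairs with permutation tests of 100000 resamples, two-sided, adjusted over the 5. None of the 5 passed over the pooled libraries. Among them only bcl2l11 and mcl1a set a survival gene against a BH3-only or effector gene. The other such pairs of the genes described here were not tested. With hMYC-5 included, their r ranged from -0.61 for mcl1b and bbc3 to 0.82 for bcl2l10 and bcl2l11. For bcl2l10 it was 0.70 with pmaip1, 0.67 with bbc3 and 0.25 with baxa. mcl1a and mcl1b gave r = -0.165 (permutation p 0.614, adjusted 0.767) and rho = -0.224 (p 0.485). Leaving out hMYC-2 and hMYC-10, whose mcl1a lay farthest from its median, gave r = -0.0757.

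bcl2l1 and mcl1a gave r = 0.484 (permutation p 0.116, adjusted 0.41) and rho = 0.203 (p 0.53). The relation rests on hMYC-2 and hMYC-4, without which r was -0.331. With library totals in place of TMM factors the pooled r was 0.290. In letter d r was -0.476 (exact p 0.354, n = 6) and in letter c 0.90 (exact p 0.0236, n = 6). The exact p-values within a letter are not adjusted, and hMYC-2 and hMYC-4 both carry letter c. bcl2l11 and mcl1a, whose products bind each other in mammals, gave r = 0.422 (permutation p 0.171, adjusted 0.41) and rho = 0.322 (p 0.308), and r was -0.032 without hMYC-13 and hMYC-2.

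hMYC-5 stood apart from the rest in bbc3, so the pairs with bbc3 were tested in the other 11 leukemias. bbc3 and pmaip1 gave r = 0.384 (permutation p 0.246, adjusted 0.41) and rho = 0.327 (p 0.327), and without a further 2 libraries r was 0.16. bbc3 and mdm2 gave r = -0.0537 (permutation p 0.882, adjusted 0.882) and rho = -0.164 (p 0.633), and without a further 2 libraries r was -0.4. The adjusted p of rho was 0.633 for all 5 pairs. Within letter d r was 0.208 for mcl1a and mcl1b (exact p 0.717), 0.117 for bcl2l11 and mcl1a (exact p 0.822), 0.582 for bbc3 and pmaip1 (exact p 0.229) and -0.317 for bbc3 and mdm2 (exact p 0.572). Within letter c the same pairs gave 0.0594 (exact p 0.936), 0.484 (exact p 0.357), 0.239 (exact p 0.725) and 0.0127 (exact p 0.992).

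For each of the 9 genes the 2 genes with the most similar level over the 12 leukemias were found by Pearson's r among 15523 genes, as a description of libraries that share normalization. pmaip1 was most like ifi30a (0.962), related to a lysosomal thiol reductase of antigen processing, and tuba8l2 (0.957), a tubulin gene. bcl2l10 was most like KCTD5 (0.947) and GALNT2 (0.936), and bcl2l1 like USP19 (0.933) and the replication helicase gene MCM6 (0.932). baxa was most like TIMM17A (0.934), a part of the mitochondrial import machinery, and LONP1 (0.905), a mitochondrial protease. bbc3 was most like PFKFB3 (0.929), a regulator of glycolysis, and FRMD5 (0.890), and bcl2a like irf2b (0.925) and ENSDARG00000099098 (0.910). mcl1a was most like ccl20a.3 (0.919), a chemokine gene, and cica (0.909). mcl1b was most like tinf2 (0.914), a telomere gene, and ENSDARG00000103034 (0.886), and bcl2l11 like PDE3B (0.903) and ATP11B (0.890).

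The letter of the sample descriptions, whose meaning is not given in the sources used here, may mark a library batch. It overlaps with the index, which averaged -4.76 ± 2.15 in letter d and -1.01 ± 3.80 in letter c (SD, n = 6 each), and all 3 leukemias with an index above 0 carry letter c. edgeR called 0 of the 9 genes between the letters, and DESeq2's Wald test also 0. Of all 13663 genes tested, edgeR called 0.344%, and DESeq2's Wald test called 1159 genes. At an unadjusted p under 0.05 there were 3 of the 9, beside 20.4% of all genes. These were bcl2l10 at -1.49 ± 0.54 log2, d minus c (SE; p 0.0171, edgeR adjusted 0.17), mcl1b at 0.64 ± 0.28 (p 0.0414, adjusted 0.226) and bcl2l1 at -0.72 ± 0.33 (p 0.0489, adjusted 0.242).

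With the letter in the fit, the slopes of the 3 called genes were close to those without it. They were 0.26 for pmaip1 (edgeR adjusted p 0.0953), 0.13 for bbc3 (0.123) and -0.11 for mcl1b (0.126). Within letter d alone the slopes were 0.50 for pmaip1, 0.03 for bbc3 and -0.13 for mcl1b. Within letter c alone they were 0.19, 0.16 and -0.11, and no gene of the 9 passed in either letter. Over all genes tested, 67 of 14905 passed in letter d and 1958 of 14308 in letter c. A difference in slope between the letters was tested by an interaction term. edgeR called 0 of the 9 genes and DESeq2's Wald test 0, and 0 of the 9 had an unadjusted p below 0.05. Over all 16446 genes tested, edgeR called 0 and DESeq2's Wald test 349, and 1736 had an unadjusted edgeR p under 0.05. Of the 9, mcl1a came closest with 0.074 (edgeR adjusted p 0.522).

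**Figure D5:**
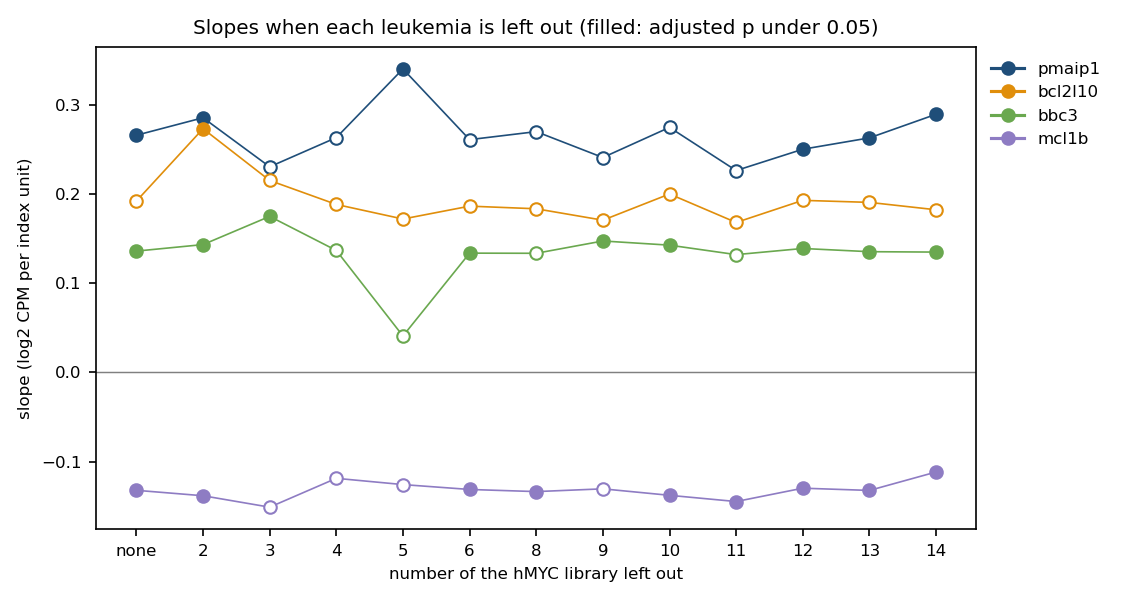
Slope along the B minus T index (y axis, log2 CPM per unit of index) of pmaip1, bcl2l10, bbc3 and mcl1b with all 12 leukemias (left) and with each leukemia left out in turn (x axis, number of the library left out). Filled points have an edgeR adjusted p under 0.05; bbc3 is lowest, at 0.04, without hMYC-5, and bcl2l10 is filled only without hMYC-2.

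The B and T parts of the index were also used alone. With the B cell mean alone 1 of the 9 genes was called, pmaip1 (edgeR adjusted p 0.0106), and bbc3 (0.139) and mcl1b (0.0553) were not. Beside this, 1870 of all 14798 genes tested were called. With the T cell mean alone 1 of the 9 was called, bbc3 (edgeR adjusted p 0.0334), lower where the T cell mean was higher. pmaip1 (0.608) and mcl1b (0.172) were not, beside 619 of all 16446 genes tested that were called.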

How the data were processed

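Poly(A) RNA of sorted GFP-positive cells was made into stranded libraries, per the labels' protocols. The values used are the authors' raw counts, deposited as whole numbers per Ensembl gene. The submitters' processing notes name bcl2fastq, STAR, Picard, featureCounts and the build GRCz10. Use of strand and multi-mapping reads in counting is not given in the sources used here, so counts of overlapping, antisense and near-identical genes are uncertain. Symbols came from a name table covering 26269 of 32105 identifiers and from RefSeq synonyms. No coordinates, transcript lengths or sequences were used.

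The genes and lists were chosen with earlier results of these data known. Of 18 B symbols 13 were matched and 11 used, and of 26 T symbols 17 were matched and used. lck and the 9 genes were left out of the index. Slopes, the letter difference and their interaction were tested with edgeR 4.0.16 (R 4.3.3, limma 3.58.1): TMM factors, filterByExpr with the design matrix, two-sided quasi-likelihood F test, Benjamini-Hochberg adjustment over all genes, threshold 0.05. SE is the size of the log2 value divided by the square root of F. DESeq2 1.42.0 served as an alternative. Relations were computed in Python 3.11.15 with scipy 1.17.1, numpy 2.4.6 and pandas 2.3.3, and a library was set apart where a gap reached 0.4 of the range. Figures were drawn with matplotlib 3.10.9. The edgeR step was tested on simulated counts with the same dispersion for every gene and no outlying library or letter effect. That test therefore cannot show how far the calls depend on single libraries or on the letter.

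Named genes are the 9 genes, the other BCL2 family genes, genes of the apoptosome list that pass, mdm2 as part of a tested pair, and the 2 genes most alike to each of the 9. cdkn1a, the apoptosome genes that did not pass and the myeloid genes were chosen after their values were seen. 1 further list of genes is not reported here. Erythroid and epithelial or pancreas genes were also counted. 4 erythroid genes summed to 2.56 to 156 CPM and 7 epithelial or pancreas genes to 3.75 to 87.8 CPM.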

Additional observations from a re-analysis of the deposited data

How the results depend on the processing

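Of 486 values under alternatives, 404 kept their direction and side of the threshold, or stayed within 1.5 times for a count. These include many values that did not pass in the main fit. Over 24 alternatives each, the call was kept in 16 for bbc3, 14 for mcl1b and 13 for pmaip1. The number of genes called along the index was 2449 by edgeR, 3702 by DESeq2's Wald test, 1117 with filterByExpr given no design (chosen after seeing the data), 619 with the T cell mean alone, 67 within letter d alone, and 1394 to 2881 when each library was left out. Between the letters it was 47 by edgeR, 1159 by DESeq2's Wald test, 7 with no filter, 2 with the index as a covariate, 0 with hMYC-1 included, and 8 to 59 when each library was left out. For the interaction it was 0 by edgeR, with 1736 genes at an unadjusted p under 0.05, and 349 by DESeq2's Wald test. Slopes that turned were those of genes that did not pass. With the letter as a covariate bcl2l1 was at -0.062 and mcl1a at -0.035. With the T cell mean alone, signs turned to match the index, they were at -0.018 and -0.15. Within letter c alone bcl2l1 was at -0.059, mcl1a at -0.098 and bcl2a at 0.056, and within letter d alone bcl2l1 was at -0.076, baxa at 0.072 and bcl2l11 at -0.0042. With each library left out, the slope ranged from -0.10 to 0.045 for bcl2a, -0.019 to 0.048 for bcl2l1, -0.016 to 0.053 for mcl1a and -0.045 to 0.0044 for baxa. The letter difference, d minus c, ranged from -0.066 to 0.28 for baxa and -0.21 to 0.98 for bcl2a, and with the index as a covariate baxa was at -0.024. The r of bcl2l1 and mcl1a was 0.0227 to 0.653 when 1 library was left out, except that it was -0.331 without hMYC-4, where the gap rule set hMYC-2 apart too. The r of bbc3 and mdm2 ranged from -0.484 to 0.108 when each library was left out beside hMYC-5, and it was 0.0988 with library totals and 0.0146 with hMYC-1 included. The cause was not tested in any of these. The order of the survival genes per kilobase was not run, because no transcript lengths were used here. No paired analysis was possible because all libraries belong to 1 group. Depth limits bcl2a and bcl2l11 most, with lowest counts of 7 and 17.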
